A study of Mus musculus with 6 samples.

Results

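Slc1a2, Slc1a3, Aqp4, Gja1, Atp1b2 and Mlc1 encode membrane proteins by which astrocytes, a glial cell type that surrounds synapses and vessels of the brain, clear glutamate, pass water and ions and couple to one another. These 6 genes, written SLC1A2, SLC1A3, AQP4, GJA1, ATP1B2 and MLC1 in the tables, were found by symbol among the genes the authors detected by both extractions (13278 shared genes), by the optimized extraction alone (617) and by the standard extraction alone (75), 13970 genes in all. All 6 were in the table of both extractions, so each has 1 log2 ratio of optimized over standard extraction. The rule that finds these genes uses their symbols and no measured value, though they were chosen with earlier results of these data known.

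RNA was sequenced from heavy complexes, that is ribosomes, polysomes and other large particles of RNA and protein, that had been pelleted through a sucrose cushion. In the optimized extraction (3 libraries, batches A, B and C), lysis took place directly on the culture plate, with the detergent DDM and more potassium chloride. In the standard extraction (3 libraries, batches A, B and C), cells were scraped, frozen as a pellet, thawed and lysed with sodium deoxycholate and Triton X-100. Both groups were thawed, untreated primary astrocytes from newborn C57BL/6JOlaHsd mice, with males and females pooled, and both lysis buffers held cycloheximide, which stalls ribosomes on mRNA.

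The deposited ratio is 1 value per gene without an error. Values per library were not analysed here, so neither depth nor the spread between batches is known and no gene was tested. A ratio gives no level of an mRNA in either extraction, and in bulk pellets fewer cells carrying an mRNA and less of it per cell cannot be told apart. All 15 astrocyte markers checked, among them these 6 genes, were detected by both extractions. The same held for 9 of 9 fibroblast and meningeal markers, 7 of 10 of the oligodendrocyte lineage, 6 of 10 neuronal (2 more, Syp and Syn1, by the standard extraction alone), 5 of 8 endothelial, 5 of 6 ependymal and 2 of 12 microglial markers. Whether other cell types add reads of the 6 genes was not tested.

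Membrane proteins are made by ribosomes that dock on the endoplasmic reticulum (ER) once the first hydrophobic stretch of the protein has left the ribosome. Slc1a2 (also GLT-1) and Slc1a3 (GLAST) take up glutamate released at synapses together with sodium, and the sodium pump, of which Atp1b2 is a beta subunit, restores the sodium gradient. Aqp4 is the main water channel of astrocyte endfeet, Gja1 (connexin 43) forms gap junctions between astrocytes, and Mlc1 acts in volume regulation and is mutated in a leukodystrophy of humans with brain cysts.

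Each of the 6 mRNAs carries, early in its coding part, a stretch that encodes a hydrophobic segment by the measure given below. These stretches are shown for 4 genes because a first hydrophobic segment is what all 6 encoded proteins share. Each is taken from the GENCODE M21 transcript (GRCm38), written 5′ to 3′ in the sense of the mRNA with T for U. Capitals mark the 57 bases that encode the first counted segment, a window of 19 residues with a mean Kyte-Doolittle hydropathy (a scale on which hydrophobic residues are positive) of at least 1.6, and lower case marks 12 coding bases on either side.
Mlc1: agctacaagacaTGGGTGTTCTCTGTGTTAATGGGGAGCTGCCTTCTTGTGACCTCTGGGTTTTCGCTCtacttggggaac
Slc1a2: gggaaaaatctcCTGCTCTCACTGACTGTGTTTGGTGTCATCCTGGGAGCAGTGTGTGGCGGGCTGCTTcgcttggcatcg
Slc1a3: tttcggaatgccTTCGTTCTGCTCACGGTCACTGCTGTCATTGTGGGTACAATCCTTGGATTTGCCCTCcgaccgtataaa
Atp1b2: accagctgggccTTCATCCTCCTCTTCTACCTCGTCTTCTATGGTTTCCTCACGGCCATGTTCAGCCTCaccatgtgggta

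The Mlc1 stretch lies at chr15:88976548-88977834 on the minus strand, across exons 2 and 3 of 12. The Slc1a2 stretch lies at chr2:102736050-102737823 on the plus strand, across exons 2 and 3 of 11. The Slc1a3 stretch lies at chr15:8688391-8708607 on the minus strand, across exons 2 and 3 of 10. The Atp1b2 stretch lies at chr11:69603483-69605270 on the minus strand, across exons 1 and 2 of 7. All 4 spans include the intron between their exons, and exons are numbered along the transcript. Thymine made up 33.3% of the capital bases in Slc1a2 and 40.4% in Mlc1, the lowest and highest of the 4, against 24.0% and 25.8% of their whole coding parts. Since codons of hydrophobic residues often have thymine at their middle base, the choice of the window raises that share.

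All 6 mRNAs had a deposited ratio above 0, a higher value in the optimized extraction before any centring, and all 6 lay below the typical gene. The median log2 ratio of the 6 genes was 0.68, against an all-gene median (over the 13278 shared genes) of 1.09, which is a 2.13-fold higher value. All 6 lay below the all-gene median, as 50.0% of the shared genes do by construction. A value past 2-fold (at least 2-fold higher in the optimized extraction) was given for 1 of the 6, Mlc1, against 63.0% of the shared genes. Past 1.5-fold there were 5 of the 6, all but Atp1b2, against 94.6% of the shared genes. None of the 6 was at least 2-fold lower, against 0.00753% of the shared genes (1 gene). Since 99.6% of the shared genes had a ratio above 0 and no source used here gives the authors' scaling, the place of each gene relative to the other genes is given beside its ratio.

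**Figure D1:**
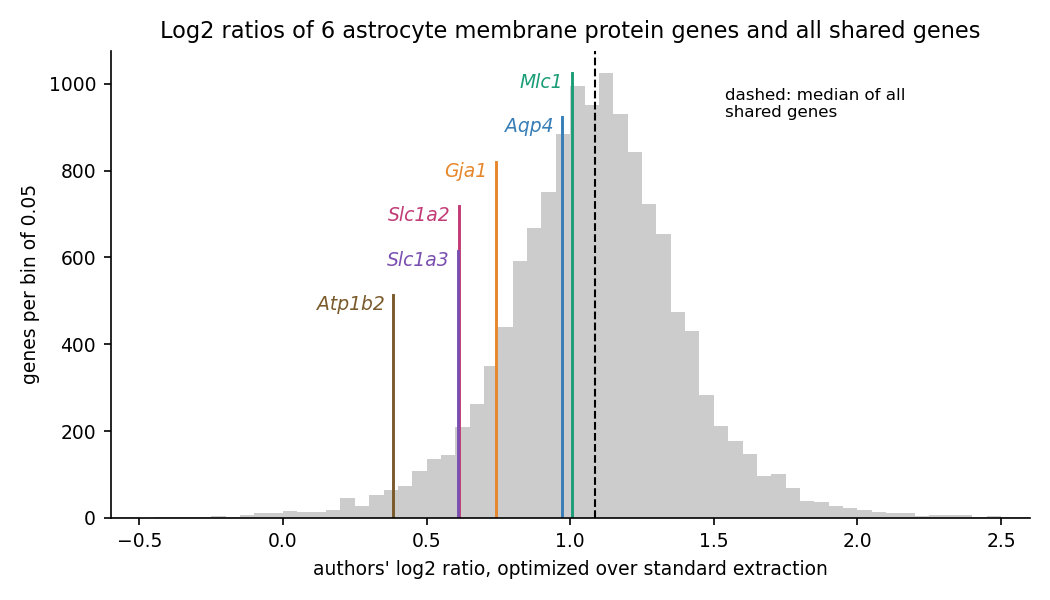
Histogram of the authors' log2 ratios (x axis, optimized over standard extraction) of the 13278 shared genes, as genes per bin of 0.05 (y axis), drawn between -0.6 and 2.6. Coloured lines mark the 6 genes (their heights only separate the labels), and all 6 stand left of the dashed median of 1.09, Atp1b2 farthest at 0.38.

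The 6 ratios spanned 0.62 on the log2 scale and formed a high pair, a middle gene, a close pair and a low gene. Mlc1 was given as 1.01 (2.01-fold) by the authors' deposited table, and 38.0% of the shared genes had a lower ratio. Aqp4 followed in the authors' deposited table at 0.97 (1.96-fold), with 33.2% of the shared genes lower. Both lie beside the 2-fold line, at 0.0064 for Mlc1 and -0.0281 for Aqp4 as log2 distance from it, so the line separates 2 nearly equal values. For Gja1 the authors' deposited table gave 0.74 (1.67-fold), with 11.4% of the shared genes lower. The glutamate transporter genes Slc1a2 and Slc1a3 both stood at 0.61 in the authors' deposited table, with Slc1a2 higher by 0.0035, and had 6.12% and 6.02% of the shared genes below them. Atp1b2 had the lowest ratio of the 6 in the authors' deposited table, 0.38 (1.30-fold), and ranked 271 from the lowest of the 13278 shared genes (2.03% lower). The steps between neighbours in this order were 0.03, 0.23, 0.13, 0.0035 and 0.23, and with no spread between batches it cannot be said which of them exceed the error. Relative to the median gene the values of Atp1b2, Slc1a3 and Slc1a2 were 0.614, 0.719 and 0.720 of the typical optimized-over-standard fold. Those of Gja1, Aqp4 and Mlc1 were 0.786, 0.923 and 0.945 of it.

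The transcripts of the 6 genes had little or no sequence in common with other annotated genes. For Mlc1, Aqp4, Gja1, Slc1a3 and Atp1b2 the transcripts shared 0 of their words of 50 bases with any other annotated gene, on either strand. Slc1a2 shared 172 of 11546 such words (1.49%), and 631 other genes held at least 1 of them. Most of these words (121) were shared with Gm13872, an antisense gene whose span covers 440 bases of Slc1a2 exons. An antisense gene covers 159 bases of Aqp4 exons, and a gene of unverified type, Gm37310, lies within Slc1a3 on the same strand and covers 0 bases of its exons. Whether the authors' counting used strand is given by no source used here, so reads from the overlaps with antisense genes may not have been told apart.

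The glutamate transporter genes of the Slc1 family all had low ratios. Slc1a2 (GRCm38 chromosome 2, 102658659 to 102790784) and Slc1a3 (chromosome 15, 8634124 to 8710764) encode proteins of 572 and 543 residues, of which 52.1% of 526 aligned residues were identical. Of the 7 family genes 6 had a ratio, with a median of 0.61. All 6 lay below the all-gene median, against 50.0% of the shared genes. Past 2-fold there were 0, against 63.0% of the shared genes. The authors' deposited table listed Slc1a6, a glutamate transporter known from cerebellar Purkinje cells, at 0.60, and its protein shares 69.3% of aligned residues with Slc1a3. Slc1a1, the transporter known as neuronal EAAC1, stood at 0.46 in the authors' deposited table. The neutral amino acid transporters of the family, Slc1a4 and Slc1a5, stood at 0.74 and 0.42 in the authors' deposited table, the highest and the lowest values of the family. Over all 227 shared genes with an Slc symbol (solute carriers of any membrane), the median was 0.86, with 170 (74.9%) below the all-gene median and 76 (33.5%) past 2-fold.

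Enzymes and carriers that handle the glutamate taken up lay above the 2 transporters, as most shared genes did. Of 13 such genes 11 had a ratio, with a median of 0.91. Of the 11, 8 (72.7%) lay below the all-gene median, against 50.0% of the shared genes. Past 2-fold there were 3 (27.3%), against 63.0% of the shared genes. Slc7a11, the cystine-glutamate exchanger, was lowest at 0.70 in the authors' deposited table. Glul, the glutamine synthetase that astrocytes use to turn glutamate into glutamine, and Slc38a3, a glutamine exporter, stood at 1.18 and 0.72 in the authors' deposited table. Both were chosen after their values were seen. The lowest of the 11 genes thus lay above both transporter genes. Of all shared genes only 6.12% lay below Slc1a2 and 6.02% below Slc1a3, so this place is not particular to the 11.

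Aqp4 (chromosome 18, 15389496 to 15410982) had the highest ratio of the aquaporin genes. Of 9 aquaporin genes 4 had a ratio. All 4 lay below the all-gene median, against 50.0% of the shared genes. Past 2-fold there were 0, against 63.0% of the shared genes. Aqp11, a channel of intracellular membranes, stood at 0.91 in the authors' deposited table. The water channel Aqp1, with 44.5% identity to Aqp4 over 265 aligned residues, stood at 0.70, and Aqp9, which also passes glycerol, at 0.55 in the authors' deposited table. Aqp4 is also 1 of the genes in the authors' list for the external side of the plasma membrane, and Slc1a3 is in their extracellular matrix list, both chosen by the study.

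The genes of the dystrophin-associated complex, which anchors Aqp4 at endfeet, spread widely around the typical gene. All 13 genes listed for it had a ratio, with a median of 0.86. Of the 13, 9 (69.2%) lay below the all-gene median, against 50.0% of the shared genes. Past 2-fold there were 5 (38.5%), against 63.0% of the shared genes. The 7 genes with a hydrophobic segment in the encoded protein (Dag1, Sgcb, Sgcd, Sgce and Sspn of the membrane, the secreted Agrn and Sntb1, a peripheral syntrophin) had a median of 0.84, a range of 0.54 to 1.02, and all 7 lay below the all-gene median. The 6 genes without one (among them Dmd, Utrn, Dtna, Dtnb and Sntb2) had a median of 1.15 and a range of 0.06 to 1.25, and 2 of them, Dmd and Utrn, lay below the all-gene median. In the authors' deposited table Dtnb, a dystrobrevin of the cytoplasmic side, was highest at 1.25, and Utrn, the dystrophin relative utrophin, lowest at 0.06. Dag1, the dystroglycan that crosses the membrane, stood at 0.89 in the authors' deposited table. The names beyond Dtnb and Utrn were chosen after their values were seen, and so was the division by hydrophobic segments.

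Gja1 (chromosome 10, 56377330 to 56402513) lay in the middle of the gap junction genes. Of 18 connexin and pannexin genes 7 had a ratio, with a median of 0.74, which is Gja1's own value. Of the 7, 6 (85.7%) lay below the all-gene median, against 50.0% of the shared genes. In the authors' deposited table Gjb6, the other main connexin of astrocytes (connexin 30), stood at 0.72 and Gja5 at 0.68. Panx1, a channel protein related in fold to connexins, stood at 1.02 in the authors' deposited table. Gjc1, connexin 45, stood apart at 1.27 in the authors' deposited table, and its protein shares 39.6% of 346 aligned residues with Gja1. Of these 7 genes 2 (28.6%), Gjc1 and Panx1, were past 2-fold, against 63.0% of the shared genes.

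Cytoplasmic and junctional partners of connexin 43 had a median close to that of all genes. Of 8 such genes 7 had a ratio, with a median of 1.13, against an all-gene median of 1.09. Past 2-fold there were 5 of the 7 (71.4%), near the 63.0% of the shared genes. Below the all-gene median there were 2 (28.6%), against 50.0% of the shared genes. Tjp1 (ZO-1), the scaffold that binds the tail of connexin 43, was highest at 1.36 in the authors' deposited table. Cnst, a connexin trafficking receptor, stood at 1.26, the ubiquitin ligase Nedd4 at 1.14 and the catenin Ctnnb1 at 1.13 in the authors' deposited table. The actin-binding Dbn1 stood at 1.00 (just under 2-fold) and the cadherin Cdh2 lowest at 0.91 in the authors' deposited table. Cdh2 and Cnst each encode 1 hydrophobic segment, and the other 5 genes encode 0. All 7 lay above Gja1, as most shared genes do, since only 11.4% of them lay below it.

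Atp1b2 (chromosome 11, 69599736 to 69605942), also known as the adhesion molecule on glia, had the lowest ratio among the sodium pump genes. Of 8 subunit genes 5 had a ratio, with a median of 0.79. All 5 lay below the all-gene median, against 50.0% of the shared genes. Past 2-fold there were 0, against 63.0% of the shared genes. The other beta subunits Atp1b3 and Atp1b1 stood at 0.87 and 0.79 in the authors' deposited table, and the log2 differences of Atp1b2 minus each were -0.49 and -0.40. Their proteins share 48.7% and 43.8% of aligned residues with that of Atp1b2. Of 7 small FXYD regulators of the pump 3 had a ratio, and in the authors' deposited table Fxyd1 stood at 1.13, Fxyd5 at 0.92 and Fxyd6 at 0.59. Of these 3 genes 1 (33.3%), Fxyd1, was past 2-fold, against 63.0% of the shared genes. The other 2 (66.7%) lay below the all-gene median, against 50.0% of the shared genes.

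Mlc1 (chromosome 15, 88955884 to 88979007) lay above most other genes in a list of its partners and volume-regulated channels. All 10 genes of the list of Mlc1, its partners and volume-regulated channels had a ratio, with a median of 0.92, 8 below the all-gene median and 3 past 2-fold. In the authors' deposited table Lrrc8b, a subunit of the volume-regulated anion channel, was highest at 1.23 and the subunit Lrrc8c lowest at 0.69. Hepacam, also GlialCAM, which brings Mlc1 to cell junctions, stood at 0.78 in the authors' deposited table, and so did Clcn2, the chloride channel that GlialCAM also binds. Both were chosen after their values were seen.

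Astrocyte genes for potassium and bicarbonate transport, the other ion carriers of the same membranes, had a median near that of the 6 genes. All 8 had a ratio, with a median of 0.74. All 8 lay below the all-gene median, against 50.0% of the shared genes. Past 2-fold there were 0, against 63.0% of the shared genes. Kcnj10 and Kcnj16, whose proteins form the Kir4.1 and Kir5.1 potassium channels, both stood at 0.29 in the authors' deposited table, below Atp1b2. The potassium channel genes Kcnk10, Kcnk1 and Kcnk2 stood at 0.61, 0.86 and 0.92 in the authors' deposited table. The bicarbonate transporter Slc4a4 stood at 0.79 and the chloride importer Slc12a2 at 0.96 in the authors' deposited table.

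**Figure D2:**
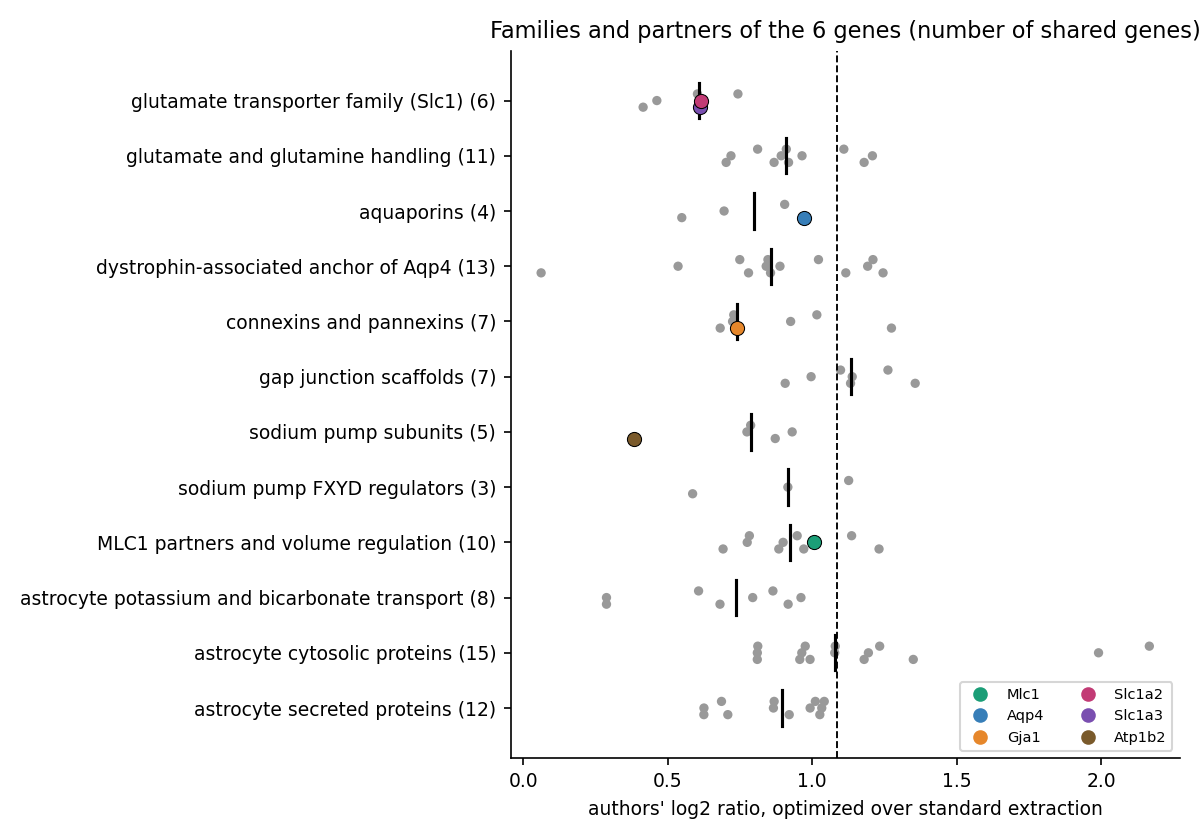
Authors' log2 ratio (x axis, optimized over standard extraction) of each gene with a ratio in 12 lists (rows), with the 6 genes as large coloured points, the list median as a short bar and the all-gene median as a dashed line. The 6 coloured points, the 6 Slc1 genes and the 5 sodium pump genes stand left of the dashed line, and the bar of the gap junction scaffolds stands right of it.

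Set against other astrocyte genes, the 6 membrane protein genes had a lower median than genes of cytosolic proteins, 0.68 against 1.08. The cytosolic median lay near the all-gene median of 1.09. The 4 astrocyte filament genes, also of cytoplasmic proteins, had a median of 0.72, near that of the 6 genes, and a range of -0.52 to 1.13. Of the 15 cytosolic protein genes 9 (60.0%) lay below the all-gene median, against 50.0% of the shared genes. Past 2-fold there were 8 (53.3%), against 63.0% of the shared genes. The metal-binding protein gene Mt1 was highest in the authors' deposited table at 2.17, and Phgdh, an enzyme of serine synthesis, lowest at 0.81. The lowest of the 15 thus lay above 4 of the 6 membrane protein genes. Most shared genes lie above these 4 as well, since only 11.4% lay below Gja1, the highest of the 4. The 12 genes of secreted astrocyte proteins had a median of 0.89, with all 12 below the all-gene median and 4 past 2-fold. Their range was 0.63 for Thbs2, a matrix protein, to 1.04 for its relative Thbs1 in the authors' deposited table. These differences between lists were not tested, since genes are not replicates.

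All 6 genes encode a hydrophobic segment. All 6 transcripts have a 3′ untranslated region longer than the median, and 5 of the 6 have a 5′ untranslated region longer than the median. The proteins of Slc1a2, Slc1a3, Mlc1, Aqp4, Gja1 and Atp1b2 held 8, 7, 7, 5, 4 and 1 hydrophobic segments, while 65.6% of the 12576 shared genes with a usable coding transcript held 0. The first segment began at residue 24 in Gja1, 37 in Aqp4, 39 in Atp1b2, 46 in Slc1a2, 50 in Slc1a3 and 58 in Mlc1. Transcript lengths ranged widely, from 2783 bases for Mlc1 to 11595 bases for Slc1a2. The 3′ untranslated region of Slc1a2, 9250 bases, was longer than that of 99.6% of the genes. The others ran from 1138 bases in Mlc1 to 3955 in Aqp4, against a median of 1093. The 5′ untranslated region was 313 bases in Gja1, 457 in Atp1b2, 496 in Mlc1, 523 in Slc1a3 and 626 in Slc1a2, against a median of 187, and 127 in Aqp4. Coding GC content lay between 51.1% in Aqp4 and 54.4% in Mlc1, near the median of 52.6%. Coding lengths lay between 873 bases in Atp1b2 and 1719 in Slc1a2, around the median of 1428.

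**Figure D3:**
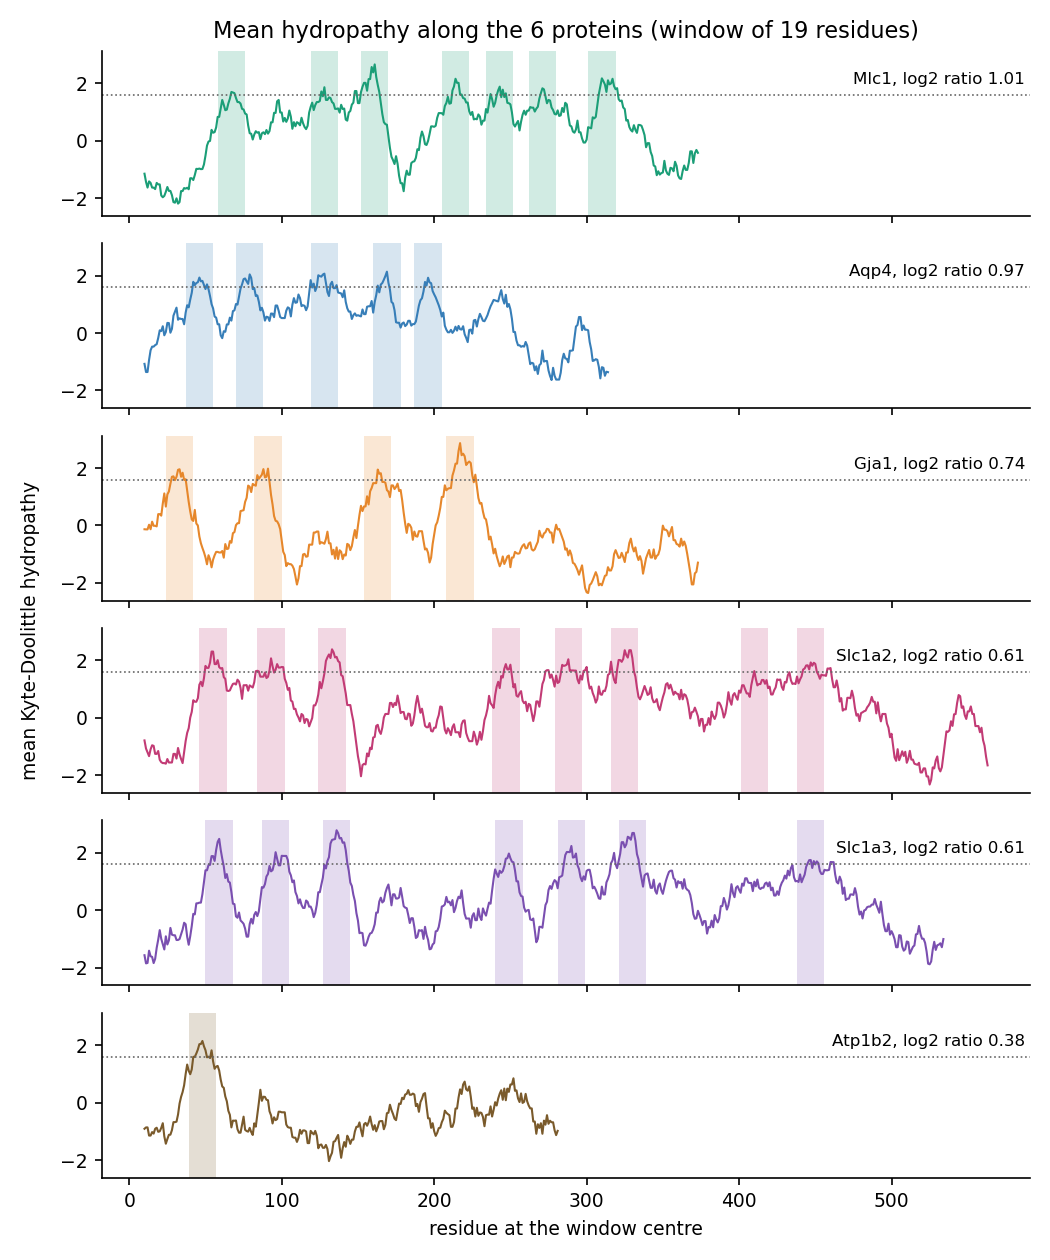
Mean Kyte-Doolittle hydropathy (y axis) in a window of 19 residues along each of the 6 proteins (x axis, residue at the window centre), ordered by log2 ratio. Shaded bands are the counted segments and the dotted line is the minimum of 1.6: Slc1a2 has 8 bands, Atp1b2 has 1 near its start.

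Across the 12576 genes the median ratio was lower where the encoded protein held more hydrophobic segments. It was 1.14 for 8249 genes with 0 segments, 0.99 for 2326 genes with 1, 0.93 for 1096 genes with 2 to 3, 0.90 for 650 genes with 4 to 7 and 0.83 for 255 genes with 8 or more. The class with 0 segments is not free of secreted proteins, since 5 of the 12 genes of secreted astrocyte proteins fell in it. Against the median of their own class, Mlc1 and Aqp4 lay higher by 0.11 and 0.08 on the log2 scale, and Gja1, Slc1a2, Slc1a3 and Atp1b2 lay lower, with differences of -0.16, -0.21, -0.29 and -0.61. Of the 650 genes with 4 to 7 segments, 446 had a lower ratio than Mlc1 and 79 a lower ratio than Slc1a3. Of the 2326 genes with 1 segment, 70 had a lower ratio than Atp1b2. By coding length, in 5 classes of nearly equal size, the median was 1.22 for the shortest (78 to 774 bases), then 1.08, 1.05, 1.05 and 1.03. The class of 777 to 1200 bases, with the median of 1.08, holds Mlc1, Aqp4, Gja1 and Atp1b2, and Slc1a3 and Slc1a2 lie in the next 2.

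**Figure D4:**
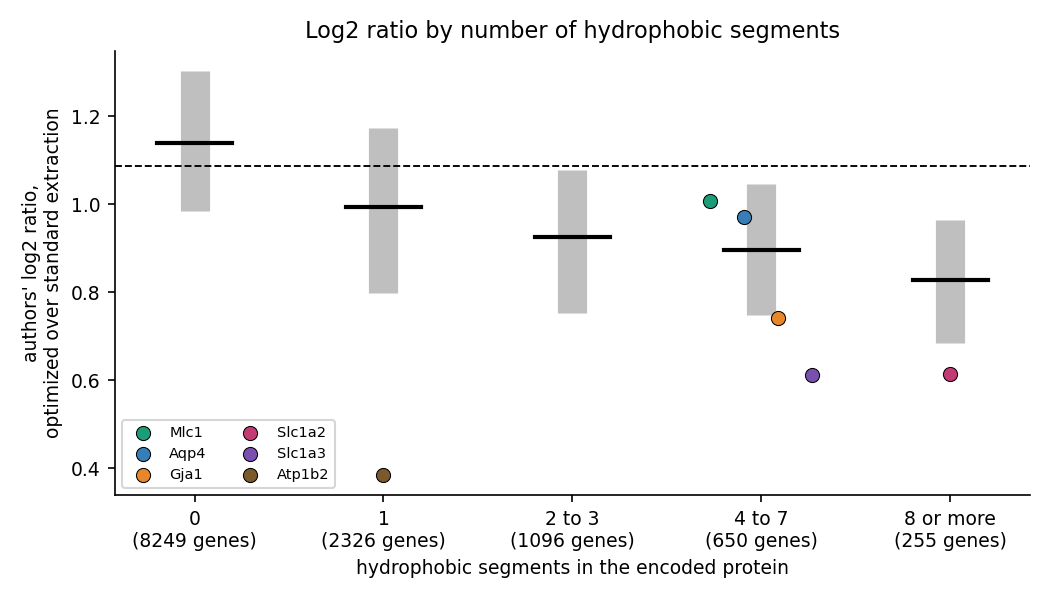
Authors' log2 ratio (y axis, optimized over standard extraction) by the number of hydrophobic segments in the encoded protein (x axis), with black bars for class medians, grey bars for the quartiles and coloured points for the 6 genes. The class medians run from 1.14 at 0 segments to 0.83 at 8 or more, and Atp1b2 stands at 0.38 in the class of 1 segment, whose median is 0.99.

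Atp1b2 differs from the other 5 in the shape of its protein, a single membrane-crossing segment followed by a glycosylated outer part. Its 290 residues held 7 N-glycosylation sequons (asparagine, any residue but proline, serine or threonine, then any residue but proline), more than 89.3% of the genes. Those of Aqp4 and Gja1 held 3 each, those of Slc1a2 and Slc1a3 held 2 each and that of Mlc1 held 1. Among the genes with at least 1 hydrophobic segment, the median ratio was 1.02 for 1506 genes with 0 to 1 sequons and 0.87 for 742 genes with 7 or more. The 62 genes that, as Atp1b2, encode 1 segment starting within the first 40 residues and 7 or more sequons had a median of 0.69, and 9 of them had a lower ratio than Atp1b2. This class was chosen after the values were seen, and a sequon is a match of letters and no measured glycan. The other beta subunits, Atp1b1 and Atp1b3, also held 1 segment each, yet stood higher, at 0.79 and 0.87 in the authors' deposited table. Whether the shape of the protein goes with the ratio of Atp1b2 was not tested.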

How the data were processed

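Library preparation used a stranded kit for total RNA, per the labels' protocols, and reads were processed with TopHat2 and featureCounts on build mm10, per the submitters' processing notes. No source used here gives versions, strand setting, annotation, scaling, the combination of batches or the detection rule. Per the file headers, the authors deposited 1 log2 fold change per gene, with the optimized extraction over the standard one. Tests across libraries had been planned, but single-library values were not analysed here. Columns of per-sample values left unmatched numbered 0. Batches are biological repetitions per the series' design text.

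The members and lists were chosen with earlier results of these data known. Genes named are the 6 members, their family members, every gene of lists with up to 8 ratios and otherwise the highest and lowest of each list. Some genes named by this rule and some sequences are not reported here. Identifiers were matched to GENCODE M21 (GRCm38, the assembly of mm10) for 13273 of 13278 shared genes. The coding transcript of best APPRIS rank gave lengths, and its translation gave hydrophobic segments (non-overlapping windows of 19 residues, mean at least 1.6), which are a proxy for membrane segments. On simulated proteins the planted number of segments was found in 100% of 650. The planted segments held only leucine, isoleucine, valine and phenylalanine, so this checked the counting alone. How well the counted segments match real membrane segments was not tested. Python 3.11.15 was used with Biopython 1.88, matplotlib 3.10.9, numpy 2.4.6 and pandas 2.3.3.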

Additional observations from a re-analysis of the deposited data

How the results depend on the processing

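No paired analysis was possible because the deposited table holds 1 ratio per gene, and leaving out a library was not run for the same reason. Centred on the median of all shared genes, the ratios were -0.47 for Slc1a2, -0.48 for Slc1a3, -0.12 for Aqp4, -0.35 for Gja1, -0.70 for Atp1b2 and -0.081 for Mlc1. Centred on the median of protein-coding genes they were -0.47, -0.47, -0.11, -0.34, -0.70 and -0.074 in the same order, so each of the 6, positive as deposited, was negative after centring. The median of the 6 was 0.68, their mean 0.72, and the median with 1 gene left out was 0.74 without Slc1a2, Slc1a3 or Atp1b2 and 0.61 without Aqp4, Gja1 or Mlc1. At 1.5-fold 5 of the 6 were higher, against 94.6% of the shared genes, and at 2-fold after centring 0 were, against 0.678%. All 6 stayed below the median of protein-coding genes and the mean of all shared genes. Without the 6 genes the list medians were 0.53 for the Slc1 family, 0.70 for aquaporins, 0.83 for connexins and pannexins, 0.83 for sodium pump subunits and 0.90 for Mlc1 partners. With a window mean of at least 2, segments numbered 5 in Slc1a2 and Slc1a3, 3 in Aqp4 and Mlc1, and 1 in Gja1 and Atp1b2. The early first segments of Mlc1, Aqp4 and Gja1, with means of 1.69, 1.93 and 1.96, were not counted at that minimum. Those of Slc1a2, Slc1a3 and Atp1b2, with means of 2.31, 2.49 and 2.15, were. Depth is unknown, so no precision can be given for any ratio.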

Other observations

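Among astrocyte filament genes, which encode cytoplasmic proteins with 0 hydrophobic segments, Vim and Gfap were listed at 1.13 and 1.11 in the authors' deposited table. Synm and Nes, also filament genes, were listed at 0.34 and -0.52 in the authors' deposited table.

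Markers of other cell types with a ratio had medians of 0.65 for 9 fibroblast and meningeal genes, 0.68 for 6 neuronal genes, 0.73 for 5 endothelial genes, 0.80 for 2 microglial genes, 0.91 for 7 genes of the oligodendrocyte lineage and 1.12 for 5 ependymal genes. The 15 astrocyte markers had a median of 0.96. These lists mix surface, secreted and cytoplasmic proteins, and how far either property goes with the ratios was not tested.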
